A study of Ovis aries with 9 samples.

Results

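The miR-379 to miR-656 cluster is a long row of miRNA hairpins in the imprinted DLK1-DIO3 domain, and its products were followed here in the sperm of rams. A read was taken as a member when its annotation held an ovine miRNA name of the cluster, from miR-379 at one end to miR-410 and miR-323c at the other. By this rule 46 of the 105 ovine miRNA names with reads belonged to the cluster. All 46 were also found in the RefSeq gene table, where they lie on sheep chromosome 18. No read carried an ovine name for miR-300, miR-656 or miR-889, and miRNA reads without an ovine name were not searched for them. The rule goes by name and uses no read count, though it was set with earlier results of these data known. A read that fits several members counted once in sums over the cluster and in full for each member it names.

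The sperm came from semen of F1 rams of wild-type genotype, with 9 samples in 3 groups. The mothers of the CON group were on standard feeding, those of OVER on over feeding and those of RES on restricted feeding, and the series title places that feeding in gestation. All samples share 1 preparation, in which detergent lysed somatic cells, RNA came from TRIzol, fragments of 15 to 50 nt were selected and NEBNext libraries were read on a NovaSeq. The labels give no age or breed. Within a group the 3 tables were identical in sequences and counts, so each group is 1 library here. Differences between libraries could therefore not be tested against replicates, and intervals show counting error alone. PCR copies cannot be told from separate molecules.

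The domain is known in sheep for the callipyge muscle phenotype. In mammals its protein-coding genes are expressed from the paternal copy, and its noncoding RNAs, the miRNA hairpins of the cluster among them, from the maternal copy. Drosha and Dicer cut each hairpin into short products of its 5′ and 3′ arms. One product is usually kept by an Argonaute protein, and its bases 2 to 8, the seed, pair with target mRNAs. The cluster is best known from brain, embryo and placenta.

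The sequences on which the values turn are the most abundant reads of each member in the deposited tables, written as DNA from 5′ to 3′ with the seed in capitals. The first group holds the 3 most abundant members, the next those at least 2-fold apart between libraries, and the last both arms of miR-382 and the main read of miR-409. "Leading" is the arm of the member's single most abundant read over the 3 libraries, and for miR-376b and miR-485 it holds fewer reads in all than the other sequence.
miR-323a: cACATTACacggtcgacctct
miR-3958: aGATATTGcacggttgatctct
miR-411a: aTAGTAGAccgtatagcgtacg
miR-543: aAACATTCgcggtgcacttct
miR-323b: cCCAATACacggtcgatctct
miR-380: tATGTAATgtggtccacgtct
miR-412: tGGTCGACcagttggaaagt
miR-376c: aACATAGAggaaattccacgt
miR-376b, miR-376c and miR-376e, shared read: tGGATATTccgtctatgttt
miR-382, leading arm: aATCATTCacggacaacacttt
miR-382, other arm: gAAGTTGTtcgtggtggattcg
miR-409: gAATGTTGctcggtgaacccct

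Each of the 3 most abundant members had a seed that no other member's leading read shared. Families by seed were small. ACATAGA was the seed of miR-376c, miR-376d and miR-376e, ATCATAC that of miR-539, miR-487a and miR-154a, and GGTCGAC that of miR-411b and miR-412. The seeds of miR-323a and miR-323b differed (ACATTAC and CCAATAC), though the names place them in 1 family. miR-329a and miR-329b had the same leading read, as did miR-376d and miR-376e, so 99.8% of the reads named miR-329a and 95.9% of those named miR-376d fitted another name too. Among the 41 distinct leading reads of 20 nt or more, 22 began with A (53.7%), against 10 of 45 (22.2%) in ovine miRNAs outside the cluster. The letters GGT, searched on the read strand within bases 9 to 14, stood in 17 of the 41 (41.5%) and in 6 of the 45 outside (13.3%). Both features were looked at after the sequences had been seen, and hairpins of a family are not independent.

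The cluster's share of miRNA reads was lowest in CON. It was 2.60% there (21787 of 839260 reads, 95% Clopper-Pearson interval 2.56 to 2.63%), 3.19% in OVER (44042 of 1380832 reads, 3.16 to 3.22%) and 3.22% in RES (49158 of 1528187 reads, 3.19 to 3.24%). The OVER share was thus 1.23 times and the RES share 1.24 times that of CON, and the intervals of OVER and RES overlap. The order of OVER and RES depended on the denominator. Of reads with an ovine miRNA name the cluster took 4.12% in CON, 4.85% in OVER and 5.44% in RES. Scaled to 1000000 reads of the whole library (RPM) it stood at 2182 in CON, 5314 in OVER and 3735 in RES. CON was lowest each time. In a bulk sample, fewer cells that hold an RNA and less of it per cell cannot be told apart.

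**Figure D1:**
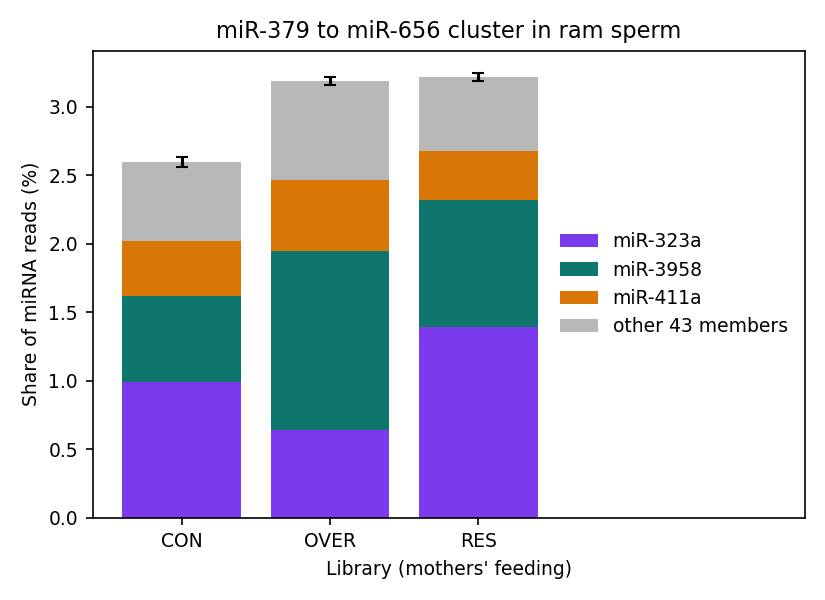
Share of miRNA reads (y axis, percent) taken by the cluster in each of the 3 libraries (x axis), stacked into miR-323a, miR-3958, miR-411a and the other 43 members; the black bars are 95% counting intervals of the total. The total stands at 2.60% (CON), 3.19% (OVER) and 3.22% (RES), and miR-3958 replaces miR-323a as the largest block in OVER.

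The libraries held 8287937 to 13160116 reads each. Reads of 15 to 20 nt made up 29.6% of OVER, 5.98% of CON and 10.3% of RES, and the part of this difference in what follows was not tested. Over all member reads together the gap was small. For CON, OVER and RES, 98.7%, 97.7% and 98.3% of member reads were 20 to 24 nt long. Their mean lengths were 21.4, 21.5 and 21.4 nt. These sums rest mostly on a few abundant members, and the gap was wider for some others. For miR-409, 249 of 278 reads in CON, 264 of 413 in OVER and 240 of 264 in RES had this length. For miR-411b it was 128 of 140, 267 of 324 and 295 of 340 in the same order. Markers of other cells were looked up as well. The epithelial list had reads for 3 of its 6 names (miR-200a, miR-200b and miR-200c), with a summed level of 5422 CPM in CON, 5380 in OVER and 1432 in RES. CPM is the number of reads per 1000000 of the miRNA class after edgeR's TMM scaling. The white blood cell list had 1 of 4 names with reads (miR-150, at 14, 5.94 and 30.1 CPM) and the muscle list 1 of 3 (miR-133, at 2.34, 0 and 13.8 CPM). No ovine name of the male germ cell, red blood cell, neuronal or liver lists had a read, so the sperm label could not be checked by such names. An ovine name was carried by 528869 of 839260 miRNA reads in CON, 907884 of 1380832 in OVER and 903920 of 1528187 in RES. The remaining miRNA reads were not searched for any of these markers, so a name without reads does not show that its miRNA was absent. The part of these markers in the results was not tested.

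A few members made up most of the cluster. miR-323a, miR-3958 and miR-411a together held 77.9% of its reads in the CON library, 77.2% in OVER and 83.2% in RES. miR-323a ranked first in CON and RES, with 38.1% and 43.4% of the cluster's reads, and miR-3958 ranked first in OVER, where miR-323a held 20%. The other 43 members took 0.575% (CON), 0.727% (OVER) and 0.541% (RES) of miRNA reads. Without the 3 leading members, the share in RES was therefore no longer above that in CON. Reads were found for 41 members in CON, 45 in OVER and 42 in RES. At least 100 reads were found for 15, 27 and 22 of them.

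miR-323a stood at 9723 CPM in CON (8306 reads), 5228 CPM in OVER (8807 reads) and 17326 CPM in RES (21321 reads). Its highest level was in RES and its lowest in OVER. miR-3958, a miRNA named from sheep, stood at 6210 CPM in CON, 10717 in OVER and 11480 in RES, so in CPM CON was low and OVER and RES were close. In CPM miR-411a differed least of the 3, at 3924 in CON, 4242 in OVER and 4429 in RES. Neither held in RPM. There miR-411a stood at 336 in CON, 862 in OVER and 414 in RES, a wider range than that of miR-323a (832, 1063 and 1620). In RPM miR-3958 stood at 531, 2178 and 1073. Within a library, the ratio of miR-323a to miR-3958 reads needs no scaling. It was 1.57 in CON (95% interval 1.51 to 1.62) and 1.51 in RES (1.48 to 1.54), and 0.488 in OVER (0.475 to 0.500).

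The next 6 by mean level were miR-382, miR-543, miR-369, miR-495, miR-3959 and miR-409. miR-382 stood at 1105 CPM in CON, 1191 in OVER and 1540 in RES. miR-543 stood at 1113 CPM in CON (951 reads), 265 in OVER (447 reads) and 1130 in RES (1390 reads), so OVER was low and the other libraries nearly equal. miR-369 showed the reverse shape, at 646 CPM in CON, 1188 in OVER and 644 in RES. miR-495 was at 394 CPM in CON and 552 in RES. miR-3959 was at 297, 345 and 238 CPM, and miR-409 at 325, 245 and 215 CPM. miR-410, miR-411b and miR-329b, which complete the 12 most abundant members, lay between 125 and 324 CPM in every library.

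**Figure D2:**
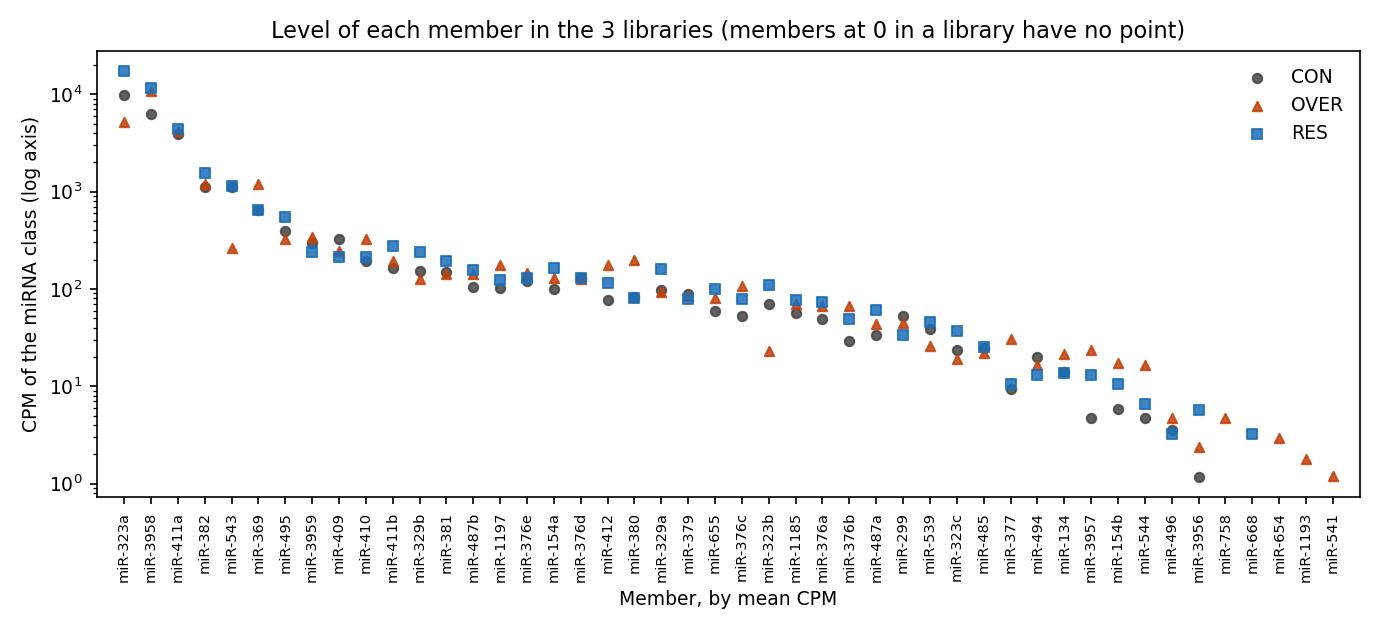
Level of each of the 46 members (x axis, ordered by mean level) in CPM of the miRNA class on a log axis, with 1 point per library (circles CON, triangles OVER, squares RES). Levels run from 17326 CPM for miR-323a in RES down to single reads, and miR-323a, miR-543 and miR-323b have an OVER point well under the others.

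At the low end, 5 members had no read in CON: miR-758, miR-1193, miR-654, miR-668 and miR-541. A count of 0 allows up to 3 reads, or 3.57 per 1000000 miRNA reads in CON. miR-758 had 8 reads in OVER and none elsewhere, all of them 20 to 24 nt long, and miR-668 had 4 reads in RES only. miR-1193, miR-654 and miR-541 had 3, 5 and 2 reads, all in OVER and none longer than 16 nt, so no read of mature length was seen for these 3.

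Members were compared between libraries as log2 ratios of CPM where the 2 libraries together held at least 100 reads, and a ratio of 2-fold or more was called. In OVER against CON, 29 members could be compared. Of these, 4 were at least 2-fold higher in OVER, where 10.5% of all 76 miRNAs compared were, and 1 was at least 2-fold lower, where 9.21% were. The median of the members was 0.26 and that of all miRNAs compared 0.03, with 19 members above 0 and 10 below. The counting interval lay wholly above 0 for 11 members and wholly below for 4.

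The members higher in OVER were of modest abundance. miR-380 had 70 reads in CON (81.9 CPM), 336 in OVER (199 CPM) and 99 in RES (80.4 CPM), a log2 ratio of 1.28 for OVER against CON (95% interval 0.91 to 1.68). miR-412 stood at 77.3 CPM in CON, 177 in OVER and 115 in RES, with a log2 ratio of 1.20 (0.81 to 1.60). RES lay near CON for miR-380 and between CON and OVER for miR-412. miR-376b went from 29.3 CPM in CON (25 reads) to 66.5 in OVER (112 reads), a log2 ratio of 1.18 (0.55 to 1.87), and miR-376c from 52.7 to 106, a log2 ratio of 1.01 (0.53 to 1.52). Both belong to the miR-376 family and share the read with seed GGATATT shown above, which had 1 read in CON, 29 in OVER and 5 in RES. All reads of that arm went from 5 in CON to 61 in OVER for miR-376b, and from 5 to 62 for miR-376c. These are largely the same reads counted under both names, so the 2 calls are not independent. Raw reads of the other sequence rose less steeply, from 20 to 51 for miR-376b and from 40 to 117 for miR-376c. Ratios without the shared arm were not computed. Of the reads named miR-376b, 99.5% fitted another name as well, so it could not be measured by reads of its own. For miR-376c the log2 ratio was 0.93 from reads with 1 name, 0.87 with shared reads split equally and 0.98 with DESeq2 size factors, each just under 2-fold. Of the reads named miR-376c, 10 of 45 in CON and 67 of 179 in OVER were shared. These settings have scaling factors of their own, which for reads with 1 name were 1.05 for CON and 1.07 for OVER. The main factors were 1.02 and 1.22, and a lower OVER factor raises the ratio. The 0.93 therefore does not show the effect of leaving out shared reads alone.

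miR-543 was the member at least 2-fold lower in OVER than in CON, with a log2 ratio of -2.07 (-2.23 to -1.91). It remained lower in RPM, where the log2 ratio was -0.82. Its neighbour along the chromosome, miR-495, had a log2 ratio of -0.26, which turned to 0.99 in RPM. Within libraries, the ratio of miR-543 to miR-495 reads was 2.82 in CON (2.49 to 3.20), 2.05 in RES (1.87 to 2.25) and 0.805 in OVER (0.709 to 0.914), a pair chosen after its values were seen. miR-323a missed the 2-fold line, with a log2 ratio of -0.90 (-0.94 to -0.85), and its direction turned to 0.35 with all reads as the library size. miR-323b had 60 reads in CON and 39 in OVER, 1 read short of the number needed for a ratio, at 70.2 and 23.2 CPM.

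In RES against CON, 28 members could be compared and none was 2-fold apart in either direction. Among all 74 miRNAs with a ratio, 2.7% passed 2-fold upward in RES and 18.9% passed it downward. Members leaned upward: 23 were above 0 and 5 below, with a median of 0.48 where the median of all miRNAs compared was 0.02. The 46 miRNAs outside the cluster had a median of -0.37, with 4.35% at least 2-fold higher in RES and 30.4% at least 2-fold lower. The counting interval lay wholly above 0 for 17 members and wholly below for 2. The highest ratios were those of miR-3958 at 0.89 (0.84 to 0.93) and miR-323a at 0.83 (0.80 to 0.87). miR-409 was lowest at -0.60 (-0.85 to -0.35), followed by miR-3959 at -0.32 (-0.57 to -0.07). miR-543, miR-369 and miR-380 were near 0, at 0.02, -0.01 and -0.03, and the sign of each of these 3 turned with the scaling. The epithelial miR-200a, miR-200b and miR-200c, which share the same scaling, were lower in RES, at -1.40, -2.15 and -2.43.

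**Figure D3:**
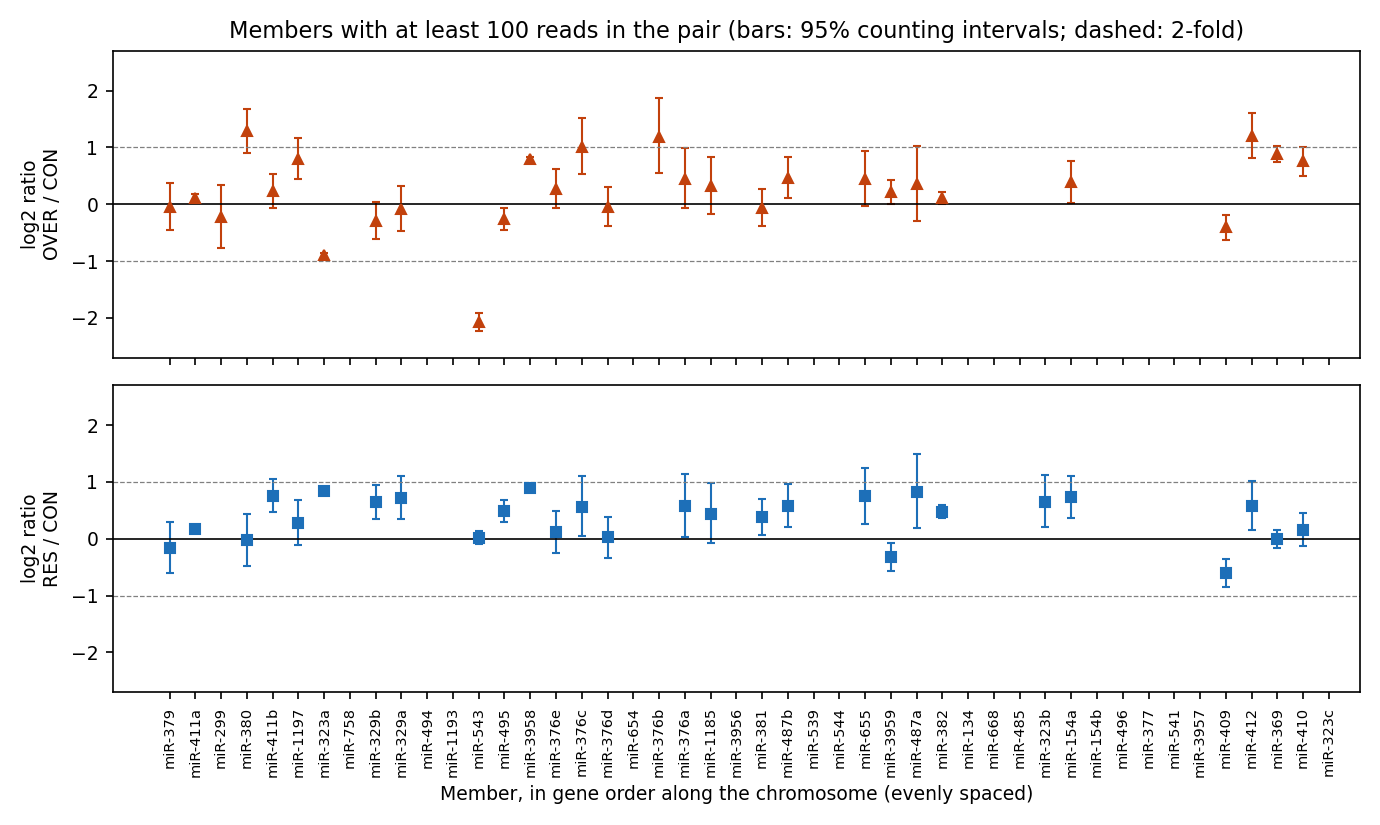
log2 ratio of CPM for OVER against CON (upper panel) and RES against CON (lower panel), with members on the x axis in gene order, evenly spaced, 95% counting intervals as bars and dashed lines at 2-fold; members with under 100 reads in the pair have no point. In OVER, miR-543 lies at -2.07 and miR-380, miR-376c, miR-376b and miR-412 at 1.01 to 1.28, while in RES every point lies between -0.60 and 0.89.

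OVER and RES were also set against each other, and this comparison shares its libraries with those above. Of 31 members compared, 1 was at least 2-fold higher in OVER (18.8% of all 80 miRNAs compared were) and 3 were at least 2-fold lower (8.75% of all were). miR-380 was the member higher in OVER, at 1.31 (0.98 to 1.65). The lower members were miR-323b at -2.26 (-2.81 to -1.73), miR-543 at -2.09 (-2.25 to -1.94) and miR-323a at -1.73 (-1.76 to -1.69). miR-323b stood at 23.2 CPM in OVER and 111 in RES. The median over members was -0.12, against 0.09 for all miRNAs compared.

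These ratios rest on the TMM factors, which were 1.02 for CON, 1.22 for OVER and 0.805 for RES. With the miRNA class total and no TMM factor, the median of all miRNAs compared moved to 0.29 in OVER against CON, -0.32 in RES against CON and 0.69 in OVER against RES. The members' medians moved by the same amounts, to 0.53, 0.14 and 0.47, since a scaling factor shifts every miRNA alike. With all reads as the library size, 24 of the 29 members were at least 2-fold higher in OVER than in CON, where 64.5% of all miRNAs were.

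Position along the cluster was read from the gene order of the RefSeq table, assembly ARS-UI_Ramb_v3.0. Of the 3 most abundant members, miR-411a is next to miR-379 at one end, and miR-323a (position 7 of 46) and miR-3958 (position 15) lie further in, with miR-543 at position 13. The 4 members higher in OVER did not lie side by side: miR-380 is near the miR-379 end, miR-376c and miR-376b are in the miR-376 group, and miR-412 is near the miR-410 end. miR-409, next to miR-412, moved the other way in OVER against CON, with a log2 ratio of -0.41 (-0.63 to -0.18). The ratio turned to 0.84 with all reads as the library size and was -0.87 with reads of 20 to 24 nt only. The ratio of miR-409 to miR-412 reads was 4.21 in CON (3.21 to 5.60), 1.39 in OVER (1.19 to 1.61) and 1.86 in RES (1.51 to 2.30), a pair also chosen after its values were seen.

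Other miRNAs of the same imprinted domain lie outside the cluster by the rule used. Of 11 such names listed, 7 had reads, with summed levels of 653 CPM in CON, 1409 in OVER and 479 in RES. miR-127, which lies opposite the paternally expressed gene RTL1, stood at 314 CPM in CON, 1054 in OVER and 183 in RES. Its log2 ratio was 1.75 for OVER against CON (1.56 to 1.94) and -0.78 for RES against CON (-1.04 to -0.52). miR-136 had log2 ratios of 0.11 and -0.17 in the same comparisons, and miR-493 stood at 11.7, 13.7 and 16.3 CPM. In RES, miR-127 was thus below CON while the median member of the cluster was above it.

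Both arms of miR-382 were abundant, and their balance differed between the libraries. The leading arm held 57.5% of its reads in CON (of 944 reads, 54.3 to 60.7%), 42.7% in OVER (of 2007, 40.5 to 44.8%) and 74.7% in RES (of 1895, 72.6 to 76.6%). The other arm was the more abundant in OVER only, and none of the 3 intervals overlap. Such shares are taken within a library and need no scaling between libraries. They do cover reads of 2 different seeds, ATCATTC and AAGTTGT. miR-369 kept to 1 arm in each library, with 87.3% of reads on it in CON, 90.2% in OVER and 87.9% in RES. miR-3959 had 96.1%, 86.6% and 92.2% in the same order. The main read of its other arm was only 17 nt long, seen 3 times in CON, 23 times in OVER and 8 times in RES. Reads of 20 to 24 nt were 249 of the 254 of miR-3959 in CON, 529 of 581 in OVER and 277 of 293 in RES. The part of short reads in its arm shares was not tested. All reads of miR-323a, miR-323b and miR-410 fell on 1 arm.

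**Figure D4:**
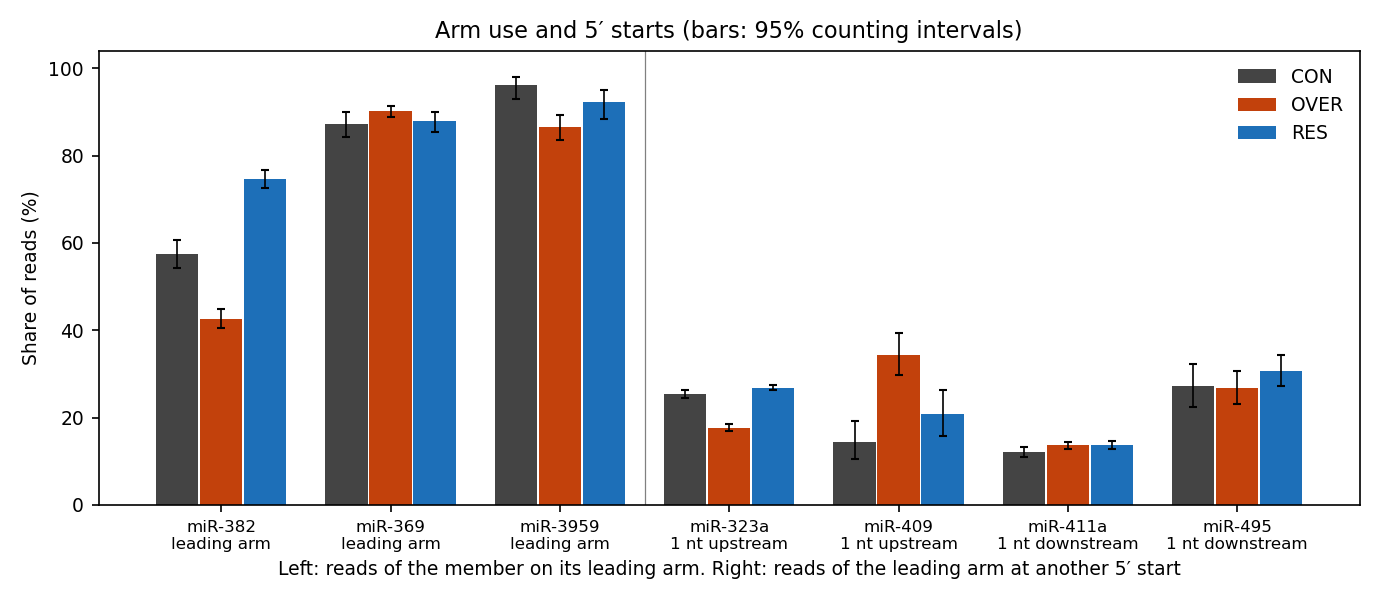
Share of reads (y axis, percent) for 7 members in each library with 95% counting intervals: on the left of the vertical line the share on the leading arm, on the right the share of the leading arm's reads at the named other 5′ start. The miR-382 leading arm holds 42.7% in OVER and 74.7% in RES, and the upstream start of miR-409 is highest in OVER at 34.4%.

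The 5′ end of a miRNA sets its seed, so reads that begin 1 nt earlier or later carry another seed. For miR-323a, reads that begin 1 nt upstream made up 25.3% in CON (24.4 to 26.3%), 17.6% in OVER (16.8 to 18.4%) and 26.9% in RES (26.3 to 27.5%). For miR-411a, reads that begin 1 nt downstream made up 12.1%, 13.6% and 13.8%. miR-3958 had little of this, with 98.9%, 98.5% and 97.2% of its reads at the main start. miR-495 spread most: in CON, OVER and RES, 56.4%, 55.6% and 51.6% of its reads began at the main start, and 27.2%, 26.7% and 30.8% began 1 nt later. For miR-409 the upstream start made up 14.4% in CON (10.4 to 19.3%), 34.4% in OVER (29.6 to 39.3%) and 20.7% in RES (15.8 to 26.4%). Its most abundant upstream read was 19 nt long, seen 13 times in CON, 91 times in OVER and 17 times in RES, so the shorter reads of OVER move with it. The main reads at other starts show how the seed in capitals shifts.
miR-323a, 1 nt upstream: gCACATTAcacggtcgacctct
miR-411a, 1 nt downstream: tAGTAGACcgtatagcgtacg
miR-495, 1 nt downstream: aACAAACAtggtgcacttctt
miR-409, 1 nt upstream: cGAATGTTgctcggtgaac

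The 3′ ends differed in their last base. In 19 cluster sequences that end in T, reads of the same start and length that ended in C in place of T made up 2.47% in CON (2.21 to 2.76%), 4.15% in OVER (3.92 to 4.39%) and 2.12% in RES (1.96 to 2.29%). Without miR-3958 the shares were 2.47%, 3.59% and 1.96%, so OVER was highest either way. In 15 sequences outside the cluster the same share was 1.18%, 1.89% and 0.797%, again highest in OVER. Reads that ended in A were 3.12%, 1.90% and 2.82% in the cluster and 0.680%, 0.839% and 0.539% outside. Of the 393 A-ended cluster reads in CON, miR-323a held 232 and miR-3958 held 143. They held 218 and 281 of 533 in OVER, and 521 and 292 of 850 in RES. The share of miR-3958 reads ending in C stood at 2.47%, 4.52% and 2.33% in CON, OVER and RES, and for miR-543 it was 1.91%, 6.01% and 2.39%, the OVER value resting on 14 of 233 reads.

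Single-base changes inside the reads were counted in the 18 cluster arms whose main read, together with its slightly shorter forms, held at least 300 reads. No arm of the miR-376 family reached this number, so that family was not scanned. Positions are numbered from 1 at the 5′ end of the main read. A change was listed when it reached 0.2% and 5 reads over the 3 libraries. Adenosine deaminases turn A into inosine, which sequencing reads as G, and hairpins of this cluster are known substrates in brain. Of 88 A positions only 1 was listed as an A-to-G change, A6G of miR-411a, which lies in the seed. This is 1.14% of A positions, against 0.709% outside the cluster, where 1 was listed. A6G was seen in 0.972% of reads in CON (0.642 to 1.41%), 1.12% in OVER (0.866 to 1.43%) and 0.674% in RES (0.455 to 0.960%), and these intervals overlap. C-to-T changes were listed at 7 of 50 C positions (14%), against 16 of 112 (14.3%) in miRNAs outside the cluster, a share near that of the cluster. Over the 3 libraries together, C10T of miR-410 was the highest of these. Next came C10T of miR-411a, at 1.04% in CON, 1.83% in OVER and 1.56% in RES. C9T of miR-3958 was at 0.590%, 0.790% and 0.589%. No change of the other 10 kinds was listed in the cluster. Outside it some were, such as G-to-A at 3 of 108 positions and T-to-G at 3 of 132. The changed base is in capitals in the miR-411a reads below, and what made these changes was not tested.
miR-411a with A6G: atagtGgaccgtatagcgtacg
miR-411a with C10T: atagtagacTgtatagcgtacg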

How the data were processed

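Small RNA-seq of sperm was deposited as 9 tables, 3 per group. Per the file headers, a row gives a sequence, its length, a read count, a genome-match flag and an annotation. The deposited counts are raw and whole. The deposited lengths, in nt, were used as given. The submitters' processing notes name edgeR. For the aligner, annotation tool and build, nothing is stated: not given in the sources used here.

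Tables of 1 group held identical sequences and counts, and annotations differed in 0 to 3 sequences, so each group was counted as 1 library and values are set side by side in place of the planned count tests. Library totals were 9983895 (CON), 8287937 (OVER) and 13160116 reads (RES). miRNA reads were summed per ovine name and scaled by edgeR 4.0.16 TMM factors, with R 4.3.3, Python 3.11.15, pandas 2.3.3 and scipy 1.17.1. Ratios needed 100 reads in the 2 libraries together, and a count of 0 was set to 3 reads. Intervals are 95% Clopper-Pearson for shares and exact binomial for ratios. Reads annotated as antisense only were kept apart. Arms were found by aligning reads to each member's most abundant read, with a start within 6 nt, an overlap of at least 14 nt and up to 1 mismatch, since no table of mature sequences was given. For short members the second sequence found could be a fragment of the same arm, so arm shares are given only where the 2 sequences are distinct arms.

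The text names the 12 members with the highest mean CPM, every member at least 2-fold apart in a comparison and, of other miRNAs of the domain, the 3 highest. The members and lists were chosen with earlier results of these data known. RefSeq's gene table (ARS-UI_Ramb_v3.0) gave names and gene order only. Alternatives were DESeq2 1.42.0 size factors, 2 other library sizes, factors from the 2 libraries compared, shared reads split or left out, no filter, reads of 20 to 24 nt and genome-matching reads. The code for ratios was tested on simulated data.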

Additional observations from a re-analysis of the deposited data

Results flagged for a closer look

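Reads annotated only as antisense to names of the cluster were outside every comparison above. They came to 48 reads in OVER, or 5.79 per 1000000 reads of the library, against 12 reads (1.20) in the control library CON and 10 reads (0.760) in RES. They were singled out because the OVER value lay above that of the control. Each group is 1 library, and the difference was not tested.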

How the results depend on the processing

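No paired analysis was possible because the 3 tables of each group were identical, and for the same reason leaving out a replicate was not run. The cluster's share of miRNA reads in CON, OVER and RES was 4.12%, 4.85% and 5.44% of reads with an ovine name, 0.218%, 0.531% and 0.374% of all reads, 2.71%, 3.26% and 3.45% among reads of 20 to 24 nt, and 0.575%, 0.727% and 0.541% without the 3 leading members, an alternative added after the data were seen. With sequences of 1 name only it was 3.15% in OVER and 3.19% in RES. The 5 members 2-fold apart in OVER against CON became 9 (8 higher, 1 lower) without the TMM factor, also added later, 24 (all higher) with all reads as library size, 3 (2 higher, 1 lower) with shared reads split and 11 (9 higher, 2 lower) with no filter. The split and the missing filter change which members can be compared. In RES against CON the count of 0 became 1 with all reads and 2 with no filter. In OVER against RES the 4 became 12 (9 higher, 3 lower) without TMM, 16 (15 higher, 1 lower) with all reads and 7 (3 higher, 4 lower) with no filter. The members' median moved to 1.51 in OVER against CON with all reads. In OVER against RES it moved from -0.12 to 0.47 without TMM, 0.995 with all reads and 0.21 with sequences of 1 name, so its sign turned. The leading-arm share of miR-382 in OVER was 46.1% when only exact starts were counted. Where construction does not show it, the cause was not tested. Members with under 100 reads in a pair limit what depth can show.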
